A study of Mus musculus with 20 samples.

Results

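The 39 genes described here encode enzymes and carriers of amino acid catabolism and of the urea cycle. They were taken as a fixed list of gene symbols, and all 39 were found among the 37681 genes listed in each count table. All 39 passed the minimum for testing (5 or more reads in no fewer than 5 samples) in each of the 6 tables, and so all were among the 15578 genes tested. The list was divided by pathway into 8 genes of the urea cycle and its mitochondrial carriers, 2 of glutamate and glutamine, 2 aminotransferases, 4 of tyrosine, 4 of tryptophan, 6 of sulfur amino acids, 5 of glycine and serine, 3 of proline and ornithine, 2 of histidine, 1 of lysine and 2 of branched-chain amino acids.

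The liver is the main site where the nitrogen of amino acids is removed and made into urea. Aminotransferases pass the amino group to oxoglutarate, which forms glutamate. Glutamate dehydrogenase and glutaminase release ammonia inside mitochondria. The urea cycle fixes this ammonia as carbamoyl phosphate, adds a further nitrogen from aspartate and releases urea from arginine. The remaining carbon skeletons go to glucose, ketone bodies or the citric acid cycle. Several of these enzymes, tyrosine aminotransferase and serine dehydratase among them, are textbook targets of glucagon and glucocorticoids, and the liver is also the organ that answers IL-1β with an acute phase response.

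Livers were taken from 10 wild-type male C57/BL6 mice aged 12 weeks. Of these, 5 mice (ILB) had received IL-1β, a cytokine that starts inflammatory signaling, at 20 µg/kg by intraperitoneal injection, and 5 mice (UNT) had received saline and are called untreated, both 4 hours before collection. Poly-A RNA of each liver was sequenced on an Illumina HiSeq and on an Ion Torrent Proton, and each set of reads was aligned with GSNAP, STAR or STAR + Bowtie2, giving 6 tables of counts with 10 libraries each. Total counts were 10568530 to 12008799 per Illumina library and 12199528 to 16439683 per Ion Torrent library.

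Values per mouse are counts per 1000000 reads (CPM) scaled by the TMM method, from the Illumina data aligned with GSNAP unless another table is named. They are given for treated mice in the order ILB_9577, ILB_9578, ILB_9579, ILB_9582 and ILB_9583 and for untreated mice in the order UNT_9574, UNT_9575, UNT_9576, UNT_9580 and UNT_9584. A log2 fold change is treated over untreated, from edgeR's quasi-likelihood test in 1 table with 5 mice against 5, and a gene was called when its p-value, adjusted by Benjamini-Hochberg over the 15578 genes, was below 0.05. Fold changes are relative to the TMM baseline. Scaling by library totals alone moves the median log2 fold change of all genes tested from 0.00 to -0.11 in this table.

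Hepatocytes make up most of the liver RNA, and 7 of the 8 hepatocyte markers on a fixed list were present. Their summed level was 96610 to 118600 CPM in untreated and 76790 to 87600 CPM in treated mice, with 2 of the 7 called lower (Alb at -0.53 and Fabp1 at -0.67 on the log2 scale) and 1 called higher (Hnf4a at 1.04). Of 9 neutrophil markers 6 could be tested. All 6 were called higher, but 3 of them (Ngp, Cxcr2 and Retnlg) reached the read minimum in treated mice alone, so that the minimum itself fixed their direction. S100a8, S100a9 and Csf3r reached it in all 5 untreated mice too. Their means were 0.52, 0.86 and 1.94 CPM in untreated and 20.7, 35.9 and 9.84 CPM in treated mice. Of the other markers tested, 3 of 8 for Kupffer cells and macrophages were lower and 1 higher, 2 of 3 for lymphocytes were lower (both reached the minimum in all 5 untreated but not in all 5 treated mice), 3 of 6 for sinusoidal endothelial cells were lower and 1 higher, 2 of 5 for stellate cells were lower and 1 higher, and 2 of 4 for cholangiocytes were higher. Of all genes tested, 23.9% were called lower and 23.7% higher in this table, and calls went both ways within several of these lists. The part of these differences in the values below was not tested. In bulk RNA, fewer cells of a type and less RNA of a gene per cell cannot be told apart.

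Within the treated group, mouse ILB_9578 had the lowest value for 32 of the 39 genes on Illumina and for 29 on Ion Torrent. Among the untreated mice, UNT_9574 was lowest for 21 and 27 genes, and UNT_9584 was highest for 18 on both platforms. Without ILB_9578, 21 genes were called lower and 6 higher in the Illumina GSNAP table. Without UNT_9574 the counts were 23 and 5, and without UNT_9584 they were 21 and 6. The matching shares of all genes tested, called without a mouse or lowest or highest in it, are not given here. These counts therefore do not tell a trait of the 39 genes from one of the whole library.

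IL-1β treatment lowered the expression of most of the 39 genes and raised a few. In all 6 tables, 22 of the 39 (56.4%) were called lower and 4 (10.3%) were called higher, against 17.6% and 17.3% of all genes tested. The 22 genes were Cps1, Otc, Ass1, Asl, Slc25a13, Glud1, Gls2, Gpt, Hpd, Hgd, Fah, Kmo, Kynu, Haao, Ahcy, Bhmt, Cth, Amt, Prodh, Prodh2, Hal and Uroc1. The 4 were Tat, Sds, Sdsl and Aass. Another 4 genes were called in 2 or 3 tables, and the remaining 9 in none.

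Table by table, the Illumina data gave 23 genes lower and 5 higher with GSNAP, where 23.9% and 23.7% of all genes were called. STAR alone gave 22 and 5, against 22.9% and 22.7% of all genes, and STAR + Bowtie2 gave 23 and 5, against 24.4% and 22.9%. The Ion Torrent data gave 24 lower and 4 higher with each aligner. The shares of all genes called there were 23.9% lower and 22.5% higher for GSNAP, 21.8% and 20.3% for STAR alone, and 24.0% and 22.8% for STAR followed by Bowtie2. The 39 genes had a median log2 fold change of -0.42 on Illumina and -0.38 on Ion Torrent with GSNAP, and between -0.43 and -0.36 over the 6 tables, and that of all genes tested was 0.00 to -0.01. All 39 genes had a mean of at least 10 CPM, and among the 7819 genes with such a mean, 27.9% were called lower and 32.7% higher, with a median of 0.05 (Illumina, GSNAP).

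**Figure D1:**
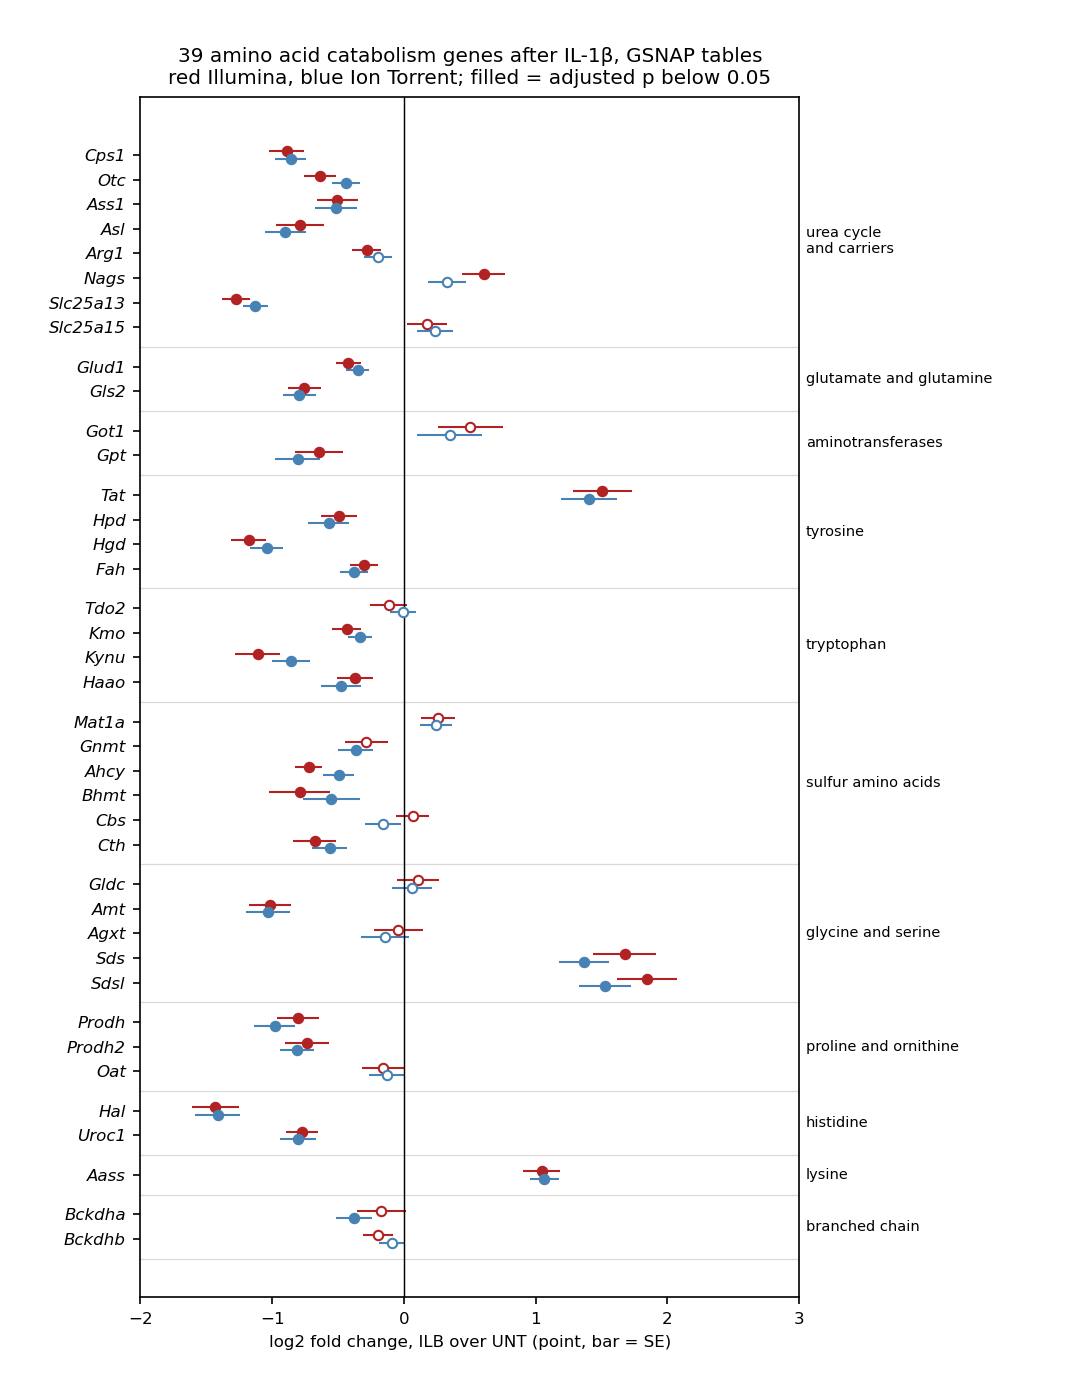
Log2 fold change, treated over untreated, of each of the 39 genes (rows, by pathway) in the GSNAP tables of Illumina (red) and Ion Torrent (blue), with bars of 1 SE and filled points where the adjusted p was below 0.05. Most filled points lie left of 0, from Hal at -1.43 on Illumina to Arg1 at -0.28, while Tat, Sds, Sdsl and Aass lie right of 1 on both platforms.

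A call in all 6 tables together with a log2 change of at least 1 in the Illumina GSNAP table was found for 9 genes, of which 7 reached 1 in each table. The exceptions on Ion Torrent were Kynu, at -0.88 to -0.84, and Amt, at -1.03 to -0.98. Lower were Slc25a13 (chr6:5991219-6167173 on mm9, NCBIM37, minus strand), Hgd (chr16:37580239-37632106, plus), Kynu (chr2:43410849-43538235, plus), Amt (chr9:108199184-108203902, plus) and Hal (chr10:92951513-92982049, plus). Higher were Tat (chr8:112514337-112523703, plus), Sds (chr5:120926540-120933941, plus), Sdsl (chr5:120908195-120922819, minus) and Aass (chr6:23022173-23082986, minus). All are annotated as protein coding, and Sds and Sdsl are neighbours on chromosome 5 that are transcribed away from each other.

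Because these 9 genes had the largest changes on Illumina with GSNAP, the promoter windows of the 6 that have one in the RefSeq table (GRCm38.p6, 250 bases before to 50 bases after the annotated start) are shown, 5′ to 3′ on the strand of the gene. Windows were found for 29 of the 39 genes, and none of Kynu, Sds and Sdsl. Capitals mark matches, on either strand, to TATAAA (found near the start of many genes), TTNNGCAA (C/EBP), TTCNNNGAA (STAT), the NF-κB consensus, TGACG (core of the cAMP response element) or TGTTCT (part of the glucocorticoid response element), where N is any base.
Tat (chr8:109990186-109990485, plus strand): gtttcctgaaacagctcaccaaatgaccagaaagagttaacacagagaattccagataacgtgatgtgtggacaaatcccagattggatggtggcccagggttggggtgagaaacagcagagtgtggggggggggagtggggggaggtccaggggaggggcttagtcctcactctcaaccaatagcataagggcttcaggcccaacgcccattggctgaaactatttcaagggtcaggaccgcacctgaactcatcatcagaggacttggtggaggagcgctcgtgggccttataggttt
Aass (chr6:23132937-23133236, minus strand): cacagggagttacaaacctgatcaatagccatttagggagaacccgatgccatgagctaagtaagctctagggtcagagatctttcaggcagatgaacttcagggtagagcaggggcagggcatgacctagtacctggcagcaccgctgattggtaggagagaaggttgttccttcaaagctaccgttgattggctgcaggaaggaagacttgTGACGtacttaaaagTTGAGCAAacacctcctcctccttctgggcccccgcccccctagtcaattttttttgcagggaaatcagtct
Slc25a13 (chr6:6217124-6217423, minus strand): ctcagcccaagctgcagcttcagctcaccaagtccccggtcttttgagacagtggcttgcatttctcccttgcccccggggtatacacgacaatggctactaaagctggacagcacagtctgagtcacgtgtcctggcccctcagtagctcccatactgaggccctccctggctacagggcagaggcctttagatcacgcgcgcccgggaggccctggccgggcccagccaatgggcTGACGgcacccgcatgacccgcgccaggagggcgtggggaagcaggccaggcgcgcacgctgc
Hgd (chr16:37579903-37580202, plus strand): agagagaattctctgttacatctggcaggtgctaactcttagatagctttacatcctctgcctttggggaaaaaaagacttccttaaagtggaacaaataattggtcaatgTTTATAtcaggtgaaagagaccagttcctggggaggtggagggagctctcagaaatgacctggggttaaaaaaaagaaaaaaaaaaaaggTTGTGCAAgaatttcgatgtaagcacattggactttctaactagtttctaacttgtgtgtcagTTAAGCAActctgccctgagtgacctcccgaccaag
Amt (chr9:108296655-108296954, plus strand): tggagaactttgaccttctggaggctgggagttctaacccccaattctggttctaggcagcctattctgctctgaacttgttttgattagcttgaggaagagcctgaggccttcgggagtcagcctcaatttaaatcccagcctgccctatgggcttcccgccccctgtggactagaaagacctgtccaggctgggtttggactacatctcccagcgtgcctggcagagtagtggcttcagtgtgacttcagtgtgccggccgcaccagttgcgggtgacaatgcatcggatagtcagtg
Hal (chr10:93488518-93488817, plus strand): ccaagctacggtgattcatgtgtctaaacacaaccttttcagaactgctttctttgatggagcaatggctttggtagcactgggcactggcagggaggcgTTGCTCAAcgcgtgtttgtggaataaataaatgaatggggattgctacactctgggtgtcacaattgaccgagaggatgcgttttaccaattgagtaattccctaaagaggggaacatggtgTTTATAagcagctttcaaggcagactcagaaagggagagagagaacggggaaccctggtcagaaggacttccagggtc

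The window of Aass held TTGAGCAA, a C/EBP match that begins 22 bases before the start, and a TGACG match that begins 37 bases before it. Hgd had 2 C/EBP matches, TTGTGCAA from 49 bases before the start and TTAAGCAA from base 15 after it, as well as a TATAAA match on the opposite strand. Hal had a C/EBP match on the opposite strand and a TATAAA match on the opposite strand from 28 bases before the start. Slc25a13 had 1 TGACG match from 13 bases before the start, and no searched motif was found in the windows of Tat and Amt.

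Over all 32851 windows of the table, 10.8% held a C/EBP match, 13.6% a TATAAA match, 8.3% a STAT match, 4.51% an NF-κB match, 20.8% a TGACG match and 19.0% a TGTTCT match. Of the 31 windows of the 29 genes, 4 held a C/EBP match (12.9%), 3 a TATAAA match (9.68%), 1 a STAT match (3.23%), 1 an NF-κB match (3.23%), 4 a TGACG match (12.9%) and 4 a TGTTCT match (12.9%). Among the 16 windows of genes lower in all 6 tables, 3 held a C/EBP match (18.8%), 2 a TATAAA match (12.5%), 1 a STAT match (6.25%), 0 an NF-κB match, 1 a TGACG match (6.25%) and 2 a TGTTCT match (12.5%). Matches describe letters in these windows, not bound sites.

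**Figure D2:**
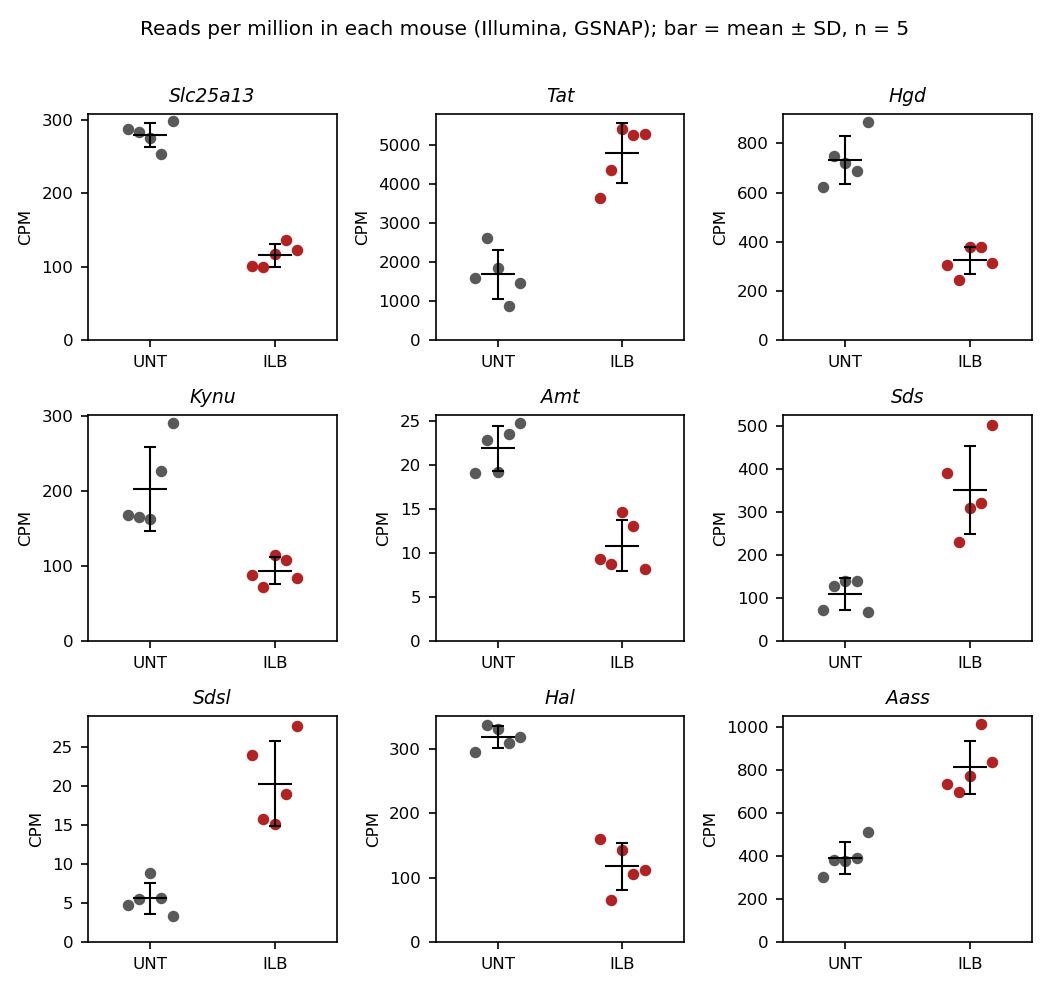
CPM in each of the 5 untreated (grey) and 5 treated (red) mice for the 9 genes called in all 6 tables with a log2 change of at least 1 in the Illumina GSNAP table, which is plotted, with the mean and SD as black bars and axes from 0. In each of the 9 panels the groups do not overlap, which the choice of genes by their change in this same table favours.

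Of the 8 genes of the urea cycle and its carriers, 6 were called lower and 1 higher in the Illumina GSNAP table, 5 of them lower in all 6 tables, with a median log2 fold change of -0.57. Slc25a13 encodes citrin, the mitochondrial carrier that exports aspartate for the step of argininosuccinate synthetase. Slc25a13 stood at 287, 284, 276, 254 and 298 CPM in the untreated mice and at 100.5, 99.8, 118, 137 and 122.5 CPM in the treated mice. Every treated mouse lay below every untreated mouse, with a log2 fold change of -1.27 ± 0.10 (SE), adjusted p = 2.54e-07, and the 6 tables gave values from -1.29 to -1.12. The levels of untreated mice spanned 253.9 to 298.0 CPM.

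Cps1, the carbamoyl phosphate synthetase that commits ammonia to the cycle, fell from 5557 ± 439 CPM (SD, n = 5) to 2998 ± 518 CPM, a log2 fold change of -0.89 ± 0.13 (SE), adjusted p = 6.79e-05. Otc, the ornithine transcarbamylase of the next step, averaged 602 ± 96.5 CPM in untreated and 387 ± 43 CPM in treated mice, a change of -0.64 ± 0.12 (adjusted p = 0.000516). For both genes the treated and untreated mice did not overlap in any of the 6 tables.

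RNA for the cytosolic steps was lower as well. Asl, argininosuccinate lyase, averaged 676 ± 173 CPM in untreated and 392 ± 92.4 CPM in treated mice, with a log2 fold change of -0.79 ± 0.18 (adjusted p = 0.00262). Ass1, argininosuccinate synthetase, had -0.51 ± 0.16 (adjusted p = 0.0146), and its groups overlapped in each table. Arg1, the liver arginase that releases urea, had the smallest decrease of the 5 cycle enzymes, with -0.28 ± 0.11 (adjusted p = 0.0492) here, and it was called in 2 of the 6 tables. Its call here was lost without any one of 7 of the 10 mice (edgeR, adjusted p of 0.0566 to 0.0978) and with no filter on low counts (adjusted p = 0.0854).

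Nags went the other way. It encodes N-acetylglutamate synthase, which makes the activator that Cps1 needs. Nags stood at 52.7, 54.6, 60.8, 49.7 and 35.6 CPM in the untreated mice and at 87.7, 55, 65, 81.6 and 96.5 CPM in the treated mice. Treated mice were higher on average but 1 treated mouse, ILB_9578, lay within the untreated range, and the log2 fold change was 0.60 ± 0.16 (adjusted p = 0.0063). It was called higher in the 3 Illumina tables and in none of the Ion Torrent tables, where GSNAP gave 0.33 ± 0.14 (adjusted p = 0.077). Its exons overlap those of an opposite-strand transcript, Gm11586, over 443 bases. Slc25a15, the ornithine carrier of the inner mitochondrial membrane, was called in no table, with values of 0.18 to 0.23 on the log2 scale.

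Of 4 further genes of this pathway, Agmat (agmatinase) was lower in all 6 tables (-0.32 ± 0.12 (adjusted p = 0.0491)). Arg2, the mitochondrial arginase of other tissues, had 0, 2, 2, 2 and 2 reads in the untreated mice and 4, 10, 7, 9 and 4 reads in the treated mice. No untreated mouse reached the read minimum in any table, so Arg2 was tested only because it was higher in treated mice, and its call in all 6 tables is given no weight. Even in treated mice the level of Arg1 per kilobase was at least 1102 times that of Arg2. The carriers Slc25a2 and Slc7a2 were called in no table.

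Both genes of glutamate and glutamine were lower in all 6 tables. Gls2 encodes the liver form of glutaminase, which feeds ammonia from glutamine to the urea cycle. Gls2 stood at 320.0, 395, 375, 366 and 433 CPM in the untreated mice and at 256.5, 162, 239, 229 and 233 CPM in the treated mice. The groups did not overlap, with a log2 fold change of -0.76 ± 0.12 (SE), adjusted p = 0.000173. Its exons share 97 bases with Spryd4 on the opposite strand. Glud1 encodes glutamate dehydrogenase. Glud1 stood at 805, 858, 877, 808 and 994 CPM in the untreated mice and at 659, 572.5, 694, 689 and 629 CPM in the treated mice. Again the groups were apart, and the log2 fold change of -0.42 ± 0.10 (SE), adjusted p = 0.00256, made it the smaller change of the pair. Glutamine synthetase (Glul) was called in none.

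Of the 2 cytosolic aminotransferases, 1 was called. Gpt stood at 173, 226, 237.5, 236 and 141 CPM in the untreated mice and at 169.9, 83.4, 117, 129 and 149 CPM in the treated mice. Gpt, alanine aminotransferase, was lower in all 6 tables, here with a log2 fold change of -0.65 ± 0.18 (SE), adjusted p = 0.00926. In these values ILB_9577 and ILB_9583 lay above UNT_9584. On Ion Torrent with GSNAP the groups did not overlap, with treated mice up to 268.0 CPM and untreated mice from 304.8 CPM. Got1 stood at 129, 238, 249.9, 311 and 372 CPM in the untreated mice and at 431, 222, 292.5, 432.5 and 464 CPM in the treated mice. Got1, aspartate aminotransferase, varied widely within both groups, the groups overlapped, and its log2 fold change of 0.50 ± 0.25 (adjusted p = 0.111) was called in no table. Without mouse ILB_9578 or without mouse UNT_9584, Got1 passed the threshold, at 0.62 (edgeR, adjusted p = 0.0445) and 0.67 (adjusted p = 0.0423). Of the mitochondrial forms, Gpt2 was higher (0.68 ± 0.11 (adjusted p = 0.000124)) and Got2 lower (-0.34 ± 0.09 (adjusted p = 0.00617)), each in all 6 tables. Among the other aminotransferases, Aadat was lower in all 6 tables and Ccbl1 and Ccbl2 were called in none.

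In tyrosine catabolism RNA for the first enzyme rose and that of the other 3 listed genes fell. Tat encodes tyrosine aminotransferase, which starts the pathway. Tat stood at 1598, 2630, 1849, 883 and 1469 CPM in the untreated mice and at 3651, 4350, 5418, 5269 and 5273 CPM in the treated mice. The lowest treated mouse was above the highest untreated mouse, and Tat was 2.84-fold higher, a log2 fold change of 1.51 ± 0.23 (SE), adjusted p = 7.57e-05. The untreated mice themselves were spread from 883 to 2630 CPM.

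Hgd encodes homogentisate dioxygenase, which opens the aromatic ring. Hgd stood at 622, 749.6, 719.9, 688 and 886 CPM in the untreated mice and at 307, 245, 379, 378 and 312 CPM in the treated mice. No treated mouse reached the lowest untreated mouse, and the log2 fold change of -1.18 ± 0.13 (SE), adjusted p = 5.81e-06, was the largest decrease of this pathway among the 39. Hpd, hydroxyphenylpyruvate dioxygenase, changed by -0.50 ± 0.14 (adjusted p = 0.0079) and Fah, fumarylacetoacetate hydrolase, by -0.30 ± 0.11 (adjusted p = 0.029), both called lower in all 6 tables. Fah was close to the threshold, and without untreated mouse UNT_9576, UNT_9580 or UNT_9584 its adjusted p (edgeR) lay between 0.0516 and 0.0685.

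The 5 further genes listed with this pathway were lower in all 6 tables. They included the pterin cofactor enzymes Qdpr and Pcbd1, and Gstz1, which acts between Hgd and Fah. Fahd1 (-1.85 ± 0.13 (adjusted p = 5.66e-08)) is a mitochondrial hydrolase of the same protein family as Fah. It is listed here by that family and not by a step of tyrosine breakdown. Fahd1 was among the 3 lowest of the 67 other genes tested.

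Of the 4 tryptophan genes, 3 were lower in all 6 tables. The first enzyme of the kynurenine pathway in liver, tryptophan dioxygenase (Tdo2), was called in none. Tdo2 stood at 1918, 2138, 1607, 1642 and 2467 CPM in the untreated mice and at 1684, 1597, 1572, 1996 and 2173 CPM in the treated mice. The groups overlapped, and the log2 fold change was -0.12 ± 0.14 (adjusted p = 0.539) and ran from -0.12 to 0.01 over the tables, so that its sign was not the same in all of them. Kynu encodes kynureninase, which cleaves hydroxykynurenine. Kynu stood at 168, 166, 163, 227 and 290.5 CPM in the untreated mice and at 88.5, 72.5, 115.5, 109 and 84.1 CPM in the treated mice. All treated mice were below all untreated mice, with a log2 fold change of -1.11 ± 0.17 (SE), adjusted p = 0.000109.

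Kmo, kynurenine monooxygenase, changed by -0.43 ± 0.11 (adjusted p = 0.00524) and Haao, hydroxyanthranilate dioxygenase, by -0.37 ± 0.14 (adjusted p = 0.0357). The groups of Kmo did not overlap in any table, whereas those of Haao overlapped in each. The call of Haao was lost with limma-voom (adjusted p = 0.0528) and, with edgeR, without any one of ILB_9578, UNT_9576 and UNT_9580 (adjusted p of 0.0655, 0.0762 and 0.101). All 4 further genes were lower in all 6 tables. Ido2, an indoleamine dioxygenase that opens the same ring as Tdo2, fell from 122 ± 4.99 to 24.9 ± 2.87 CPM, a log2 fold change of -2.29 ± 0.10 (adjusted p = 5.91e-10) that was the lowest of the 67. The others were Acmsd (-1.31), Afmid (-1.19) and Qprt (-0.41).

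**Figure D3:**
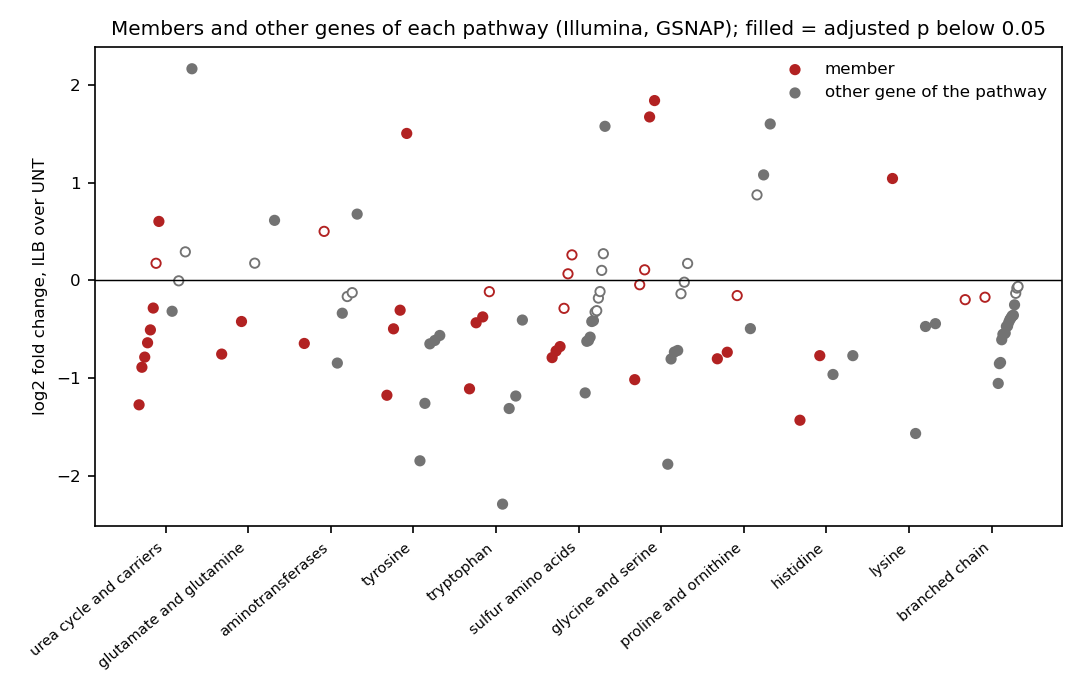
Log2 fold change of the 39 genes (red) and of the 67 other genes tested in the same pathways (grey) in the Illumina GSNAP table, filled where the adjusted p was below 0.05. In both sets most points lie below 0, with medians of -0.42 and -0.42, and the few above 1 include Tat, Sds, Sdsl and Aass in red and Odc1 in grey.

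The 6 genes of sulfur amino acids fell into 3 that were lower in all 6 tables (Bhmt, Ahcy and Cth), 1 called lower by Ion Torrent in 3 tables (Gnmt) and 2 called in none (Mat1a and Cbs). Mat1a encodes the liver methionine adenosyltransferase that makes S-adenosylmethionine. Mat1a stood at 3078, 3572, 4616, 3017 and 4094 CPM in the untreated mice and at 4352, 4422, 4043, 4579 and 4640 CPM in the treated mice. Its groups overlapped, and the log2 fold change of 0.26 ± 0.13 (adjusted p = 0.112) was the highest of the pathway. Without untreated mouse UNT_9576 it was 0.36 and passed the threshold (edgeR, adjusted p = 0.0308).

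Bhmt encodes betaine-homocysteine methyltransferase, which turns homocysteine back into methionine. Bhmt stood at 583, 591, 675, 834 and 1027 CPM in the untreated mice and at 391, 214, 588, 554 and 397 CPM in the treated mice. Here ILB_9579 among the treated mice lay above the lowest untreated mouse, and the log2 fold change of -0.79 ± 0.23 (SE), adjusted p = 0.0117, came with a wide error. Ahcy, which hydrolyses S-adenosylhomocysteine, averaged 502 ± 58.4 CPM in untreated and 304 ± 19.8 CPM in treated mice, with -0.72 ± 0.10 (adjusted p = 3.99e-05) and no overlap in any table. Cth, the lyase that forms cysteine from cystathionine, had -0.68 ± 0.16 (adjusted p = 0.00332), also without overlap.

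Gnmt, which uses S-adenosylmethionine to methylate glycine, had -0.29 ± 0.16 (adjusted p = 0.171) on Illumina and -0.37 ± 0.14 (adjusted p = 0.0367) on Ion Torrent with GSNAP. Cbs, the cystathionine synthase before Cth, was positive on Illumina (0.07 ± 0.13 (adjusted p = 0.7)) and negative on Ion Torrent (-0.16 ± 0.14, adjusted p = 0.368), called in neither, and turned negative on Illumina when TMM was left out. Of 13 further genes, 6 were lower and 1 higher in the Illumina GSNAP table. Bhmt2, a paralog of Bhmt, fell by 1.15 on the log2 scale.

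The 5 genes of glycine and serine held both of the largest increases on Illumina with GSNAP. Sds encodes serine dehydratase, which turns serine into pyruvate and ammonia, and Sdsl a related enzyme. Sds stood at 72.8, 128, 140.5, 139.9 and 67.8 CPM in the untreated mice and at 392, 230.1, 309, 320.2 and 503 CPM in the treated mice. Sdsl stood at 4.75, 5.52, 8.83, 5.69 and 3.42 CPM in the untreated mice and at 24, 15.8, 15.2, 19 and 27.7 CPM in the treated mice. In both genes every treated mouse exceeded every untreated mouse in all 6 tables. Sds was 3.20-fold higher, a log2 fold change of 1.68 ± 0.24 (SE), adjusted p = 4.58e-05, and Sdsl 3.59-fold higher, a log2 fold change of 1.84 ± 0.23 (SE), adjusted p = 1.38e-05. Sdsl was the least abundant of the 39 genes per kilobase in untreated mice, at 3.77 ± 1.33 CPM per kilobase against 68.1 ± 22.6 for Sds. Exons of Sds overlap those of Plbd2 on the opposite strand over 360 bases, and whether the counting used strand is not given in the sources used here.

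Amt, the aminomethyltransferase of the glycine cleavage system, moved down. Amt stood at 19.2, 22.9, 19.3, 23.5 and 24.9 CPM in the untreated mice and at 9.35, 8.81, 14.7, 13.2 and 8.17 CPM in the treated mice. The groups were apart in each table, with a log2 fold change of -1.02 ± 0.16 (SE), adjusted p = 0.000128. Gldc, the decarboxylase of the same complex, was called in no table (0.11 ± 0.16 (adjusted p = 0.619)), and its small positive value became -0.01 without TMM. Agxt, which detoxifies glyoxylate in peroxisomes, was called in none either (-0.04 ± 0.19 (adjusted p = 0.885)). Among 7 further genes tested, 4 were lower in all 6 tables. These were Shmt1 (-1.88 ± 0.13 (adjusted p = 4.62e-08)) and Shmt2 (-0.81), which exchange serine and glycine in cytosol and mitochondria, Gcsh (-0.72), the carrier protein of glycine cleavage, and Pipox (-0.73). Tdh and Dao were too low to be tested.

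Proline dehydrogenase (Prodh) and hydroxyproline dehydrogenase (Prodh2) were lower in all 6 tables. Prodh stood at 135.5, 148, 201, 151 and 121 CPM in the untreated mice and at 110.1, 61, 80.1, 93 and 89.8 CPM in the treated mice. The highest treated mouse lay below the lowest untreated mouse, with a log2 fold change of -0.80 ± 0.16 (SE), adjusted p = 0.000692. Prodh2 had -0.74 ± 0.17 (adjusted p = 0.00215), and its groups overlapped, with treated mice up to 89.1 CPM and untreated mice from 85.7 CPM. Oat, ornithine aminotransferase, was called in none. Oat stood at 672, 985, 616, 728 and 1211 CPM in the untreated mice and at 735, 713, 817, 705 and 814 CPM in the treated mice. The untreated values enclosed all treated values, and the log2 fold change was -0.15 ± 0.16 (adjusted p = 0.471). In the same pathway, ornithine decarboxylase Odc1 (1.08 ± 0.12 (adjusted p = 6.39e-06)), which starts polyamine synthesis, was higher in all 6 tables, and Aldh4a1, the step after Prodh, was lower (-0.49).

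RNA of the measured genes of histidine breakdown was lower at each step. Hal encodes histidine ammonia-lyase, which starts this breakdown. Hal stood at 296, 337, 331, 309 and 318 CPM in the untreated mice and at 159.8, 66.2, 144, 107 and 113 CPM in the treated mice. The untreated mice lay close together at 295.8 to 337.0 CPM, all treated mice were at 159.8 CPM or less, and the log2 fold change of -1.43 ± 0.18 (SE), adjusted p = 1.41e-05, was the lowest of the 39 genes. Uroc1 stood at 352, 454, 449.7, 504 and 483.5 CPM in the untreated mice and at 282.5, 203, 282, 283.5 and 262 CPM in the treated mice. Uroc1, urocanate hydratase, the following enzyme, had no overlap either and a log2 fold change of -0.77 ± 0.12 (SE), adjusted p = 0.000114. The next enzymes, Amdhd1 (-0.77 ± 0.17 (adjusted p = 0.00161)) and Ftcd (-0.96 ± 0.14 (adjusted p = 6.86e-05)), were lower in all 6 tables too.

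RNA for the first enzyme of lysine breakdown was higher. Aass encodes the synthase of saccharopine, the first intermediate. Aass stood at 304, 381, 379, 391 and 512 CPM in the untreated mice and at 735, 699.6, 775, 1014 and 839 CPM in the treated mice. No untreated mouse reached the treated range, and Aass was 2.06-fold higher, a log2 fold change of 1.05 ± 0.14 (SE), adjusted p = 2.71e-05. The 3 later genes were lower in all 6 tables, with Aldh7a1 at -0.47, Gcdh at -0.44 and Dhtkd1, a mitochondrial dehydrogenase subunit that acts on oxoadipate, at -1.57 ± 0.15 (adjusted p = 1.16e-06).

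The 2 genes of the branched-chain ketoacid dehydrogenase were not called in the Illumina GSNAP table. Bckdha stood at 159, 153, 193, 226 and 101 CPM in the untreated mice and at 157, 103, 146, 157 and 175 CPM in the treated mice. Bckdhb stood at 57, 67.4, 67.5, 61.3 and 80.2 CPM in the untreated mice and at 59, 47.3, 67.6, 62.7 and 54 CPM in the treated mice. Both sets of values overlapped, with log2 fold changes of -0.17 ± 0.18 (adjusted p = 0.479) and -0.20 ± 0.12 (adjusted p = 0.182). Bckdha was called lower in the 3 Ion Torrent tables, at -0.38 ± 0.13 with GSNAP (adjusted p = 0.0304), and Bckdhb in none. Among 18 further genes of the pathway, 15 were called lower in the Illumina GSNAP table and 13 in all 6, and the other 3 were not called. Their median was -0.45, from -1.06 ± 0.16 (adjusted p = 8.09e-05) for Ppm1k, the phosphatase that activates the dehydrogenase, to -0.06 ± 0.20 (adjusted p = 0.843) for Bckdk, the kinase that inactivates it. Dbt, the core subunit of the complex, had -0.55 ± 0.10 (adjusted p = 0.000259).

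Across the pathways, 67 of the 69 other genes listed could be tested. With Illumina and GSNAP, 43 (64.2%) were lower and 6 (8.96%) higher, with a median log2 fold change of -0.42, and 40 (59.7%) were lower and 6 higher in all 6 tables. Of all genes tested, 23.9% were called lower and 23.7% higher with Illumina and GSNAP, and 17.6% and 17.3% in all 6 tables. This list, too, was chosen with earlier results of these data known. Arg2 is among the 6. The 3 lowest were Ido2, Shmt1 and Fahd1.

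The 39 genes were also grouped by the place and the cofactor of their products. Of the 16 with a mitochondrial product, 9 were lower and 2 higher (median -0.43), and of the other 23, 14 were lower and 3 higher (median -0.37). Among the 11 enzymes that use pyridoxal phosphate, the pyridoxine-derived cofactor of transamination, 3 were lower, 3 higher and 5 not called (median 0.07). The other 28 had 20 lower and 2 higher (median -0.50). All these counts are from the Illumina GSNAP table, where 23.9% of all genes tested were called lower and 23.7% higher. The groups by place and cofactor were not tested against each other.

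Levels per kilobase of exon put Mat1a (1146 ± 213 CPM per kilobase, SD, n = 5), Arg1 (1059 ± 104) and Cps1 (1000 ± 79) first among the 39 genes in untreated mice on Illumina with GSNAP, and these neighbours lay within their spread of each other. In treated mice Tat came first (1993 ± 318.5), ahead of Mat1a (1374 ± 73.1) and Arg1 (871 ± 98.1). Tat had been the sixth in untreated mice (701 ± 264) and Sds moved from rank 30 to rank 10, while Cps1 moved from rank 3 to rank 6. Ass1 was at rank 19 in untreated mice here, but its level depended on the aligner. Its mean over the 10 mice on Illumina, without TMM, was 254.7 CPM with GSNAP and 2386 CPM with STAR. The order with STAR was not computed, so the ranks hold for GSNAP alone. The order was another on Ion Torrent with GSNAP. There Gnmt was first in untreated mice (2117 ± 298), ahead of Arg1 (1371 ± 131), Hpd (1142 ± 102) and Mat1a (963 ± 173). Tat was again first in treated mice there (2349 ± 385.5) and Sds moved from rank 25 to rank 9, but Cps1 was at rank 6 in both groups.

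Together the 39 genes took 2.703% to 3.16% of all gene reads in untreated mice (median 3.02%) and 2.12% to 2.73% in treated mice (median 2.54%) on Illumina with GSNAP, and the groups overlapped. The urea cycle group went from 0.893% to 1.05% down to 0.433% to 0.650%, without overlap. The histidine group went from 0.0708% to 0.0847% down to 0.0259% to 0.0440%, and the glutamate and glutamine group from 0.121% to 0.139% down to 0.0707% to 0.0910%, both without overlap. The tyrosine group, in which Tat dominates, was at 0.426% to 0.628% in untreated and 0.574% to 0.728% in treated mice. Leaving out Tat, a choice made after its values were seen, the remaining genes took 2.53% to 2.97% and 1.70% to 2.23%.

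**Figure D4:**
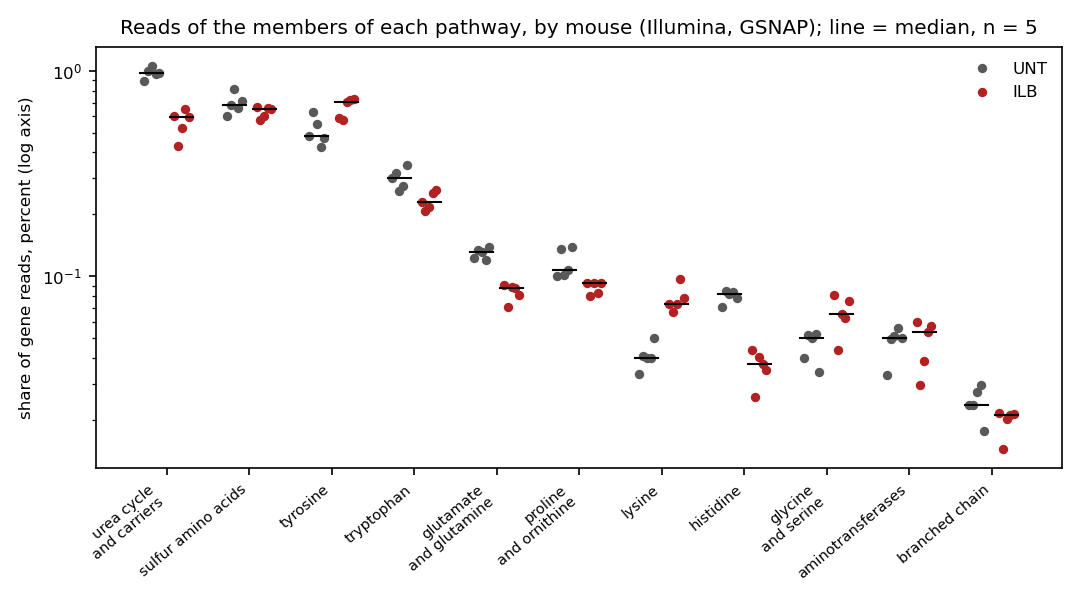
Share of gene reads, in percent on a log axis, taken by the listed genes of each pathway in each untreated (grey) and treated (red) mouse, with black lines at the medians (Illumina, GSNAP, n = 5). The urea cycle, glutamate, proline, histidine and lysine groups are separated between treatments, and the others overlap.

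Levels depended on the aligner for 3 genes. Mean Ass1 levels over the 10 mice on Illumina were 254.7, 2386 and 2214 CPM for GSNAP, STAR and STAR + Bowtie2 in turn, and 761, 2038 and 1733 CPM on Ion Torrent, here as a share of the table's reads without TMM. Ahcy had 407, 1239 and 1166 CPM on Illumina and 432, 934 and 887 on Ion Torrent. Bhmt had 589, 1012 and 968 CPM on Illumina and 537, 608 and 626 on Ion Torrent. For the remaining 36 genes the highest of the 3 Illumina means was at most 1.11 times the lowest. The levels of these 3 genes are therefore uncertain, as is their place in an order of levels.

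Their response was less dependent on it. Over the 6 tables the log2 fold change of Ass1 was -0.53 to -0.49, that of Ahcy -0.72 to -0.49 and that of Bhmt -0.79 to -0.53, and all 3 were called lower in each.

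**Figure D5:**
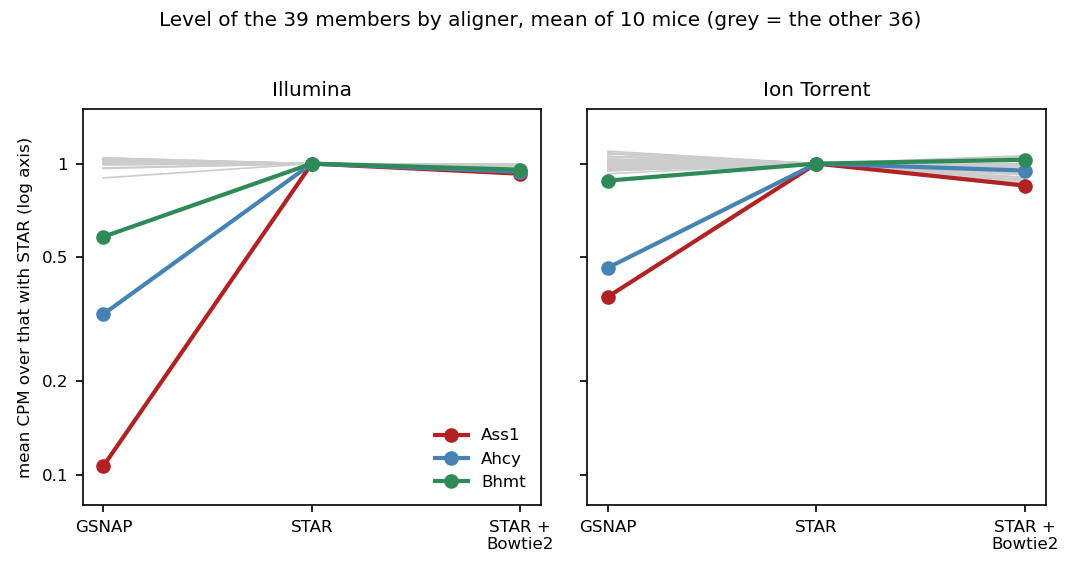
Mean CPM of each of the 39 genes with each aligner, divided by its mean with STAR, on a log axis, for Illumina (left) and Ion Torrent (right). Ass1, Ahcy and Bhmt (coloured) are lower with GSNAP on both platforms, most of all Ass1 on Illumina, and the 36 grey lines stay near 1.

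Whether the change differed between platforms was tested with a platform-by-treatment term fitted to both libraries of all 10 mice, each mouse being a block. With edgeR, 0 of the 39 genes passed the adjusted threshold under any aligner, where, in the order GSNAP, STAR and STAR + Bowtie2, 0.0642%, 0.00642% and 0.077% of all genes did, and limma-voom also called 0. At an unadjusted p below 0.05 there were 7, 6 and 7 of the 39 genes (17.95%, 15.38% and 17.95%), against 7.8%, 7.0% and 7.77% of all genes tested. The difference in log2 fold change, Ion Torrent minus Illumina, ran from -0.31 to 0.23 with GSNAP, and the smallest adjusted p was 0.578. The most negative values were -0.31 ± 0.19 (SE) for Sdsl, -0.31 ± 0.16 for Sds and -0.29 ± 0.10 for Nags. The most positive were 0.23 ± 0.08 for Kynu and 0.23 ± 0.08 for Bhmt. They varied with the aligner, as Bhmt was at 0.15 with STAR and 0.12 with STAR + Bowtie2, and Sdsl at -0.23 and -0.40. A call of Nags on Illumina only, or of Gnmt and Bckdha on Ion Torrent only, is thus not shown to be a difference between platforms.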

How the data were processed

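Liver RNA of 10 mice was measured in 20 libraries. Per the labels and the methods of the study, the authors aligned reads to mm9 with GSNAP, STAR 2.5.1b or STAR followed by Bowtie2 2.2.9, and used PORT to remove rRNA and mitochondrial reads, assign reads to Ensembl genes and re-sample the libraries of each table to the smallest. The authors deposited whole-number counts per gene in 6 tables, all 60 columns of which were used. Genes that reached 5 reads in no fewer than 5 of a table's 10 samples, in any table, were tested.

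Counts were fitted in each table with edgeR 4.0.16 (TMM, quasi-likelihood test, R 4.3.3), in place of the study's Mann-Whitney test, which gives no fold change and serves as an alternative beside DESeq2 1.42.0, limma-voom 3.58.1, other scaling, other filters and leaving out each mouse. The fits were also run on simulated data, and the outcome is not reported here. For the edgeR fits far fewer genes were changed there than are called here, and the libraries of a mouse shared no effect. That run therefore cannot test the mouse block, or the scaling under changes as wide as these. An SE is the absolute log2 fold change over the root of F. Same-mouse libraries correlated at 0.592 to 0.745 in their deviations from the group mean for 9 mice and at 0.196 to 0.248 for UNT_9584. The labels give both libraries of a mouse the same number. For UNT_9584 the study also reports a lower correlation between platforms and a shifted distribution of Ion Torrent read lengths. Tables were normalized separately, so levels across them were not tested.

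The genes and lists were chosen with earlier results of these data known. All 10 values are given for genes called the same way in all 6 tables with a log2 change of at least 1 and for the lowest and highest gene of each pathway, and the 3 lowest and 3 highest of the other pathway genes are named. Genes called in no table, or with a changing sign, are named as well. Other genes are named for their role in a pathway. Gene positions and exon lengths are from the Ensembl annotation of NCBIM37, and promoters from RefSeq. Some pathway genes, including some that this rule selects, enter the counts and medians but are not reported here by name.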

Additional observations from a re-analysis of the deposited data

Results flagged for a closer look

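In 78 groups of 5 mice (39 genes, 2 treatments, Illumina GSNAP), a single mouse lay far from the other 4 by Dixon's criterion in 4 groups, and chance gives about 1 in 20. Treated mouse ILB_9578 was low for Gls2, at 162.0 CPM against 229.3 to 256.5 in the other treated mice. It was also low for Haao, at 196.3 CPM against 266.7 to 292.7, and for Uroc1, at 203.1 CPM against 262.3 to 283.5. Treated mouse ILB_9583 was high for Ahcy, at 337.8 CPM against 289.5 to 302.2. On Ion Torrent the same mice were again outside the range of the others, at 173.3 CPM for Gls2, 225.5 for Haao, 234.4 for Uroc1 and 431.6 for Ahcy.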

How the results depend on the processing

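Counts of genes called lower over the 6 tables were 21 to 23 with Mann-Whitney, 23 to 24 with DESeq2, 21 to 24 with limma-voom, 24 to 25 without TMM, 22 to 24 with DESeq2 size factors, 22 to 24 with the filter within a table, 21 to 24 with no filter and 19 to 24 without each mouse. Counts called higher were 4 to 5 under these settings and 4 to 6 without each mouse. The platform-by-treatment term with no replicate block, with limma-voom or without each mouse called 0 genes in each case (7, 6 and 7 at an unadjusted p below 0.05 in the edgeR fit with the block), so the pairing changed no call.

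In the Illumina GSNAP table the calls of Fah and Arg1 were lost with no filter (-0.28 and -0.26), that of Arg1 also without 7 of the mice in turn (-0.24 to -0.30), and Bckdhb was called without TMM (-0.32). Uncalled genes changed sign. Without TMM, Cbs was at -0.053 and Gldc at -0.014. Without each mouse, Cbs ranged from -0.003 to 0.135 and Gldc from -0.062 to 0.191 (both lowest without ILB_9579), Agxt from -0.212 to 0.069 and Oat from -0.248 to 0.012. The cause was not tested. Depth limits what can be said of Arg2, at 0 to 2 reads in untreated mice.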

Other observations

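The balance of paralogs, chosen after their values were seen and not tested, differed between treatments for some pairs. Gpt per kilobase was 0.725 to 1.43 times Gpt2 in untreated mice (median 1.10) and 0.292 to 0.633 times in treated mice (median 0.434), without overlap. Ahcy was 6.98 to 9.34 times Ahcyl1 in untreated and 5.13 to 6.66 times in treated mice. The size of this ratio holds for GSNAP alone, as mean Ahcy on Illumina was 407 CPM with GSNAP and 1239 CPM with STAR. Sds was 14.2 to 22.8 times Sdsl in untreated and 13.5 to 18.9 times in treated mice, and Prodh 0.659 to 1.003 and 0.715 to 0.931 times Prodh2, with overlap in both pairs. Got1 over Got2 was 0.467 to 1.15 and 1.04 to 1.84, also with overlap.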
